A study of Mus musculus with 24 samples.

Results

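The difference between striatum and cerebral cortex of wild-type mice 8 weeks old was measured in 6 of the 24 RNA-seq libraries of a study of R6/2 mice. The striatal group held the 3 libraries titled ESW176, ESW180 and ESW183, and the cortical group those titled ECW176, ECW178 and ECW180. Genotype, tissue and age in the labels alone chose them, and no measured value was used. The animals were non-transgenic littermates of R6/2 mice, a line that models Huntington's disease through a fragment of mutant human huntingtin, on a mixed C57Bl/6 and CBA background. The other 18 libraries were R6/2 tissue or were taken at 12 weeks. The wild-type libraries of 12 weeks, 3 of each tissue, served as a second set in which the same difference was measured. The labels do not state that the 3 libraries of a group came from separate animals, so each p-value measures the spread between these libraries, which may be partly technical.

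Most striatal neurons are GABAergic spiny projection neurons, whereas most cortical neurons are glutamatergic pyramidal cells. Spiny neurons form a direct pathway, which carries the D1 dopamine receptor, dynorphin and substance P, and an indirect pathway, which carries the D2 dopamine receptor, the A2a adenosine receptor and enkephalin. Dopamine and adenosine act on a shared chain in these cells: the receptors act through G proteins that drive or restrain adenylyl cyclase, which makes cAMP, kinase A and DARPP-32 respond to cAMP, and phosphodiesterases break it down. In a bulk tissue sample, fewer cells of a type and less RNA per cell cannot be told apart.

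Counts in genes ran from 7.09 to 9.04 M in the striatal libraries and from 11.6 to 29.3 M in the cortical ones. Levels below are TMM-scaled RPKM: counts per kilobase of gene, scaled to the same total of counts in genes and then by TMM, which sets the bulk of genes level between libraries. In each list of levels the striatal libraries stand in the order ESW176, ESW180, ESW183 and the cortical ones in the order ECW176, ECW178, ECW180. Counts in genes made up 42.9, 26.9 and 25.9% of the library total that the authors used in striatum, and 52.0, 49.8 and 59.7% in cortex. Only the relative level within the counts in genes is therefore described.

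Several libraries stood apart before any tissue was compared. Genes poor in G and C were high, and genes rich in them low, in ESW176 and ECW176 and ECW178, with correlations of a gene's deviation with its GC content of -0.37, -0.39 and -0.39 across genes. The reverse held in ESW180 and ESW183 and ECW180 (0.36, 0.31 and 0.40). Both classes thus held libraries of both tissues, in unequal numbers. ESW176 also carried more RNA of cortical excitatory neuron genes than the other striatal libraries: Slc17a7, the vesicular glutamate transporter VGLUT1, lay at 20.3, 0.667 and 1.6 in striatum and 122, 119 and 179 in cortex. Neurod6 lay at 31.7, 0.247 and 0.496 in striatum and 108, 96.3 and 114 in cortex. Neurod1, listed here among both cortical and hippocampus genes, was higher in ESW176 than in any cortical library, with values given below. The source of this RNA was not tested. ESW180 and ESW183 carried more RNA of the choroid plexus and hypothalamus. Ttr, transthyretin of the choroid plexus, lay at 135, 978 and 4895 in striatum and 0.169, 2.06 and 1.03 in cortex, and Oxt, the oxytocin precursor, at 0, 120.5 and 29.9 in striatum and 0, 0 and 0 in cortex. In ECW176, Eomes (1.73, 1.19 and 0.618 in striatum and 17.2, 0.056 and 0 in cortex), Sp8 (0.228, 5.09 and 4.68 in striatum and 13.1, 2.17 and 0.442 in cortex) and Th (3.27, 5.49 and 4.61 in striatum and 14.4, 0.436 and 0.983 in cortex) were above the other cortical libraries. The share of each result that these differences between libraries account for was not tested.

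**Figure D1:**
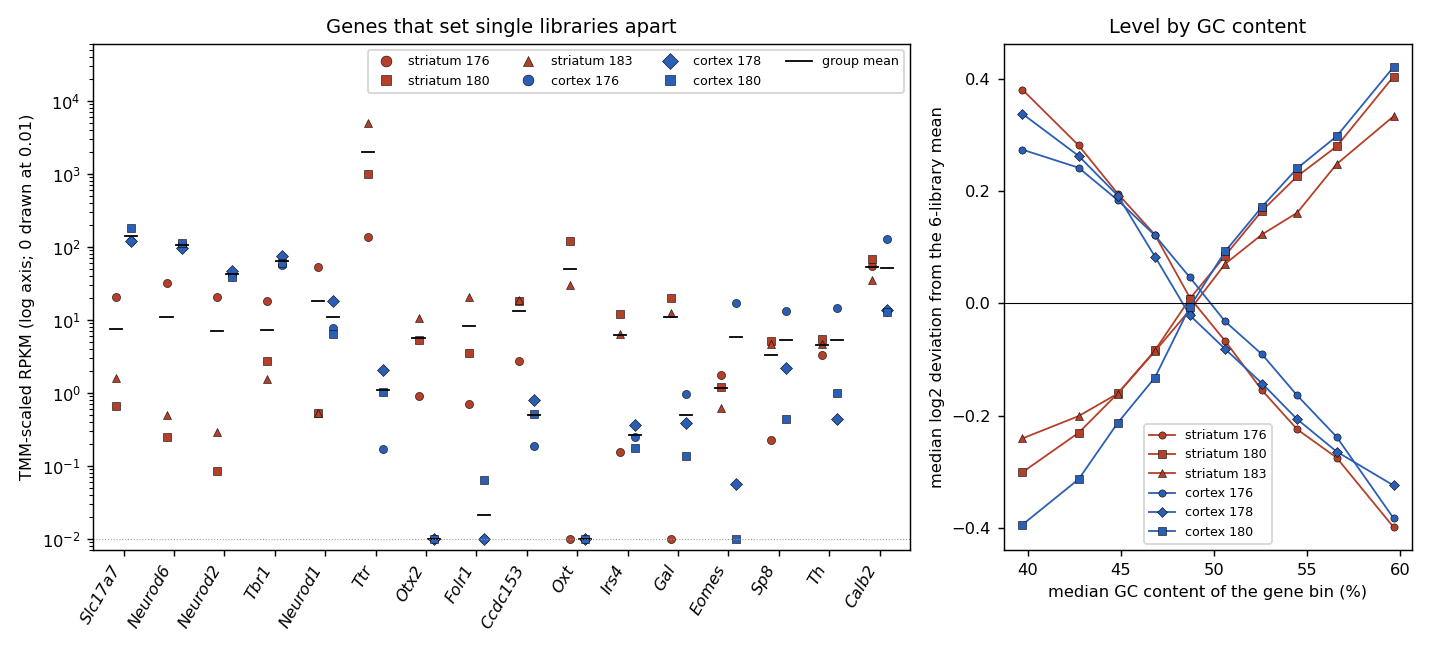
Left, TMM-scaled RPKM (log axis, 0 drawn at 0.01) of 16 genes in each of the 6 libraries, with striatum in red, cortex in blue, marker shapes for the numbers in the titles and the group mean as a bar. Right, median log2 deviation from the mean of the 6 libraries in 10 bins of genes by GC content. ESW176 lies between the other striatal libraries and cortex for Slc17a7, Neurod6 and Tbr1, Ttr and Oxt are high in ESW180 and ESW183, and the deviation by GC content runs in opposite directions in the 2 classes of 3 libraries.

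Of 11479 genes tested, 422 (3.68%) differed between striatum and cortex at an adjusted p under 0.05 in edgeR's quasi-likelihood test, and such genes are called here. They split into 216 higher in striatum (1.88%) and 206 lower (1.79%), and 411 of them differed by at least 2-fold. The striatal and cortical values did not overlap in 421 of the 422, against 2567 (22.4%) of all genes tested. The median log2 difference was 2.27 in the higher and -1.71 in the lower genes, against 0.02 over all genes tested. Scaling to the library total of the authors moved the median of all genes to -0.67 and gave 1408 lower genes, with 11.6% of calls higher against 216 of 422 on the TMM scale. With that library total, 332 of the 422 calls were kept in edgeR, and all 422 kept their sign. Gnb5, Chrm4, Camkv, Strn, Foxp1, Hpca, Kcnip2 and Gnal, described below, were not called there. Their log2 differences ran from 0.34 to 1.12, with adjusted p from 0.0642 to 0.475. Lower calls went from 8 to 19 among potassium channels. Higher calls went from 24 to 20 among shared projection neuron genes and from 5 to 6 among direct pathway markers. Among the TMM-scale calls of at least 4-fold, 128 genes were higher and 70 lower. With the GC class as a covariate, 901 genes were higher and 1007 lower, and 421 of the 422 calls were kept with their direction. The count of calls was 957 without ESW176, 127 without ESW180 and 73 without ESW183, and it was 89, 142 and 318 without ECW176, ECW178 and ECW180. As shares of all genes, 4.22% were called higher and 4.12% lower without ESW176, 0.732 and 0.375% without ESW180, and 0.479 and 0.157% without ESW183. They were 0.470 and 0.305% without ECW176, 0.740 and 0.497% without ECW178, and 1.49 and 1.28% without ECW180. The shares were 7.85 and 8.77% with the GC class in the fit, and 4.57 and 4.81% in DESeq2, while 17.2% of genes had an unadjusted p under 0.05 in edgeR. Counts of list members under these settings are read against those shares.

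**Figure D2:**
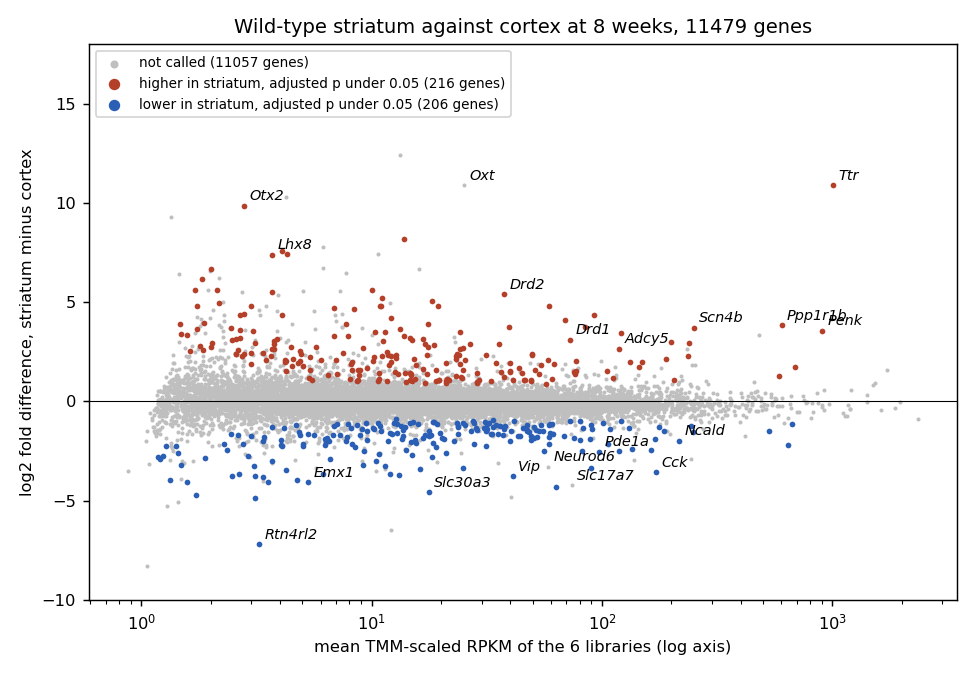
Each point is 1 of the 11479 genes tested, with the mean TMM-scaled RPKM of the 6 libraries (log axis) against the log2 fold difference, striatum minus cortex. The 216 genes called higher are red, the 206 called lower are blue, with Ttr, Otx2 and Lhx8 among the highest red points and Rtn4rl2 the lowest blue point.

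Of 29 tested genes shared by both classes of spiny projection neuron, 24 were called higher in striatum and 0 lower, with a median log2 difference of 2.34. Over all genes tested 1.88% were called higher and the median was 0.02. Ppp1r1b, which encodes DARPP-32, the phosphoprotein inhibitor of protein phosphatase 1, lay at 1007, 1147 and 1226 in striatum and 73.2, 108 and 53.4 in cortex (log2 3.85, SE 0.32, adjusted p = 0.00231). Every striatal library was above every cortical one, and striatum held 14.4 times the cortical level. Scn4b, a sodium channel beta subunit, had the lowest p of all genes tested and lay at 487, 432 and 477 in striatum and 35.7, 41.6 and 29.5 in cortex (log2 3.71, SE 0.25, adjusted p = 0.00199). The 3 striatal values were close together and none came near the cortical range.

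The other members of the shared list ranged from 0.35 to 4.94 on the log2 scale. The widest was Sh3rf2, a scaffold with SH3 domains, at 3.75, 4.39 and 4.4 in striatum and 0.105, 0.319 and 0.0303 in cortex (log2 4.94, SE 0.71, adjusted p = 0.0115). Among the most even was Strn, striatin, a calmodulin-binding scaffold, at 62.1, 63.3 and 53.3 in striatum and 21.7, 20.0 and 19.8 in cortex (log2 1.54, SE 0.20, adjusted p = 0.00809). The members that were not called included Tmem158, Bcl11b, Meis2 and Arpp19. Bcl11b, the transcription factor CTIP2, lay at 139, 79.0 and 87.0 in striatum and 42.6, 38.7 and 17.1 in cortex without overlap (adjusted p = 0.061), while the values of Arpp19, a cAMP-regulated phosphoprotein, at 2576, 1094 and 1082 in striatum and 1179, 1249 and 1304 in cortex on a deposited gene length of 87 bases, overlapped. The count of higher members was 24 without ESW176, 13 without ECW176, between 17 and 21 without each of the other libraries in turn, and 27 with the GC class in the fit.

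The chain from dopamine receptor to cAMP held members of both directions. Of 40 tested, 15 were called higher and 4 lower (background 1.88 and 1.79%), with a median log2 difference of 0.52. At the receptors, Drd2 lay at 62.6, 81.4 and 76.1 in striatum and 1.89, 2.97 and 0.635 in cortex, a 42.1-fold difference (log2 5.40, SE 0.53, adjusted p = 0.00391). Drd1 lay at 194, 92.8 and 104 in striatum and 13.9, 27.1 and 4.26 in cortex (log2 3.12, SE 0.63, adjusted p = 0.0355), with ESW176 the highest. Adora2a, the adenosine receptor of the indirect pathway, lay at 103, 114 and 125 in striatum and 3.52, 7.91 and 1.1 in cortex (log2 4.80, SE 0.65, adjusted p = 0.00949). For all 3 receptors the groups were far apart, and ECW180, the most deeply sequenced, held the lowest value. Drd3 was below the filter and had 22 counts in the striatal and 1 in the cortical libraries, a ratio of 49.6 at equal depth with a 95% counting interval of 8.02 to 2047.

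Among the G protein subunits that couple these receptors, Gng7, the gamma subunit, was the most even: it lay at 339, 355 and 366 in striatum and 46.0, 51.3 and 36.9 in cortex (log2 2.98, SE 0.24, adjusted p = 0.00199). Gnal, the alpha subunit that activates adenylyl cyclase in striatum, lay at 254, 198 and 216 in striatum and 78.7, 83.9 and 38.9 in cortex (log2 1.73, SE 0.32, adjusted p = 0.0293). Gnb5, the beta subunit that pairs with RGS9, lay at 130.2, 164 and 172 in striatum and 73.1, 52.2 and 80.2 in cortex (log2 1.18, SE 0.24, adjusted p = 0.0387). The inhibitory alpha subunits were not called: Gnai1 lay at 127, 124 and 124 in striatum and 205, 171 and 131 in cortex, Gnai2 at 74.9, 119 and 111 in striatum and 69.1, 81.9 and 99.0 in cortex, and Gnao1 at 133, 228 and 214 in striatum and 179, 171 and 221 in cortex. The groups of Gnai2 and Gnao1 overlapped. Rgs9, which speeds the turn-off of the G protein in striatal neurons, lay at 191, 163 and 175.04 in striatum and 10.7, 11.9 and 3.36 in cortex (log2 4.36, SE 0.47, adjusted p = 0.00402). Rgs2 and Rgs8 were also called higher (log2 1.85 and 1.48), whereas Rgs4 (795, 299 and 366 in striatum and 454, 416 and 371 in cortex) and Rgs7 (log2 -0.83, adjusted p = 0.141) were not called.

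The adenylyl cyclases, which make cAMP, split by isoform. Adcy5 was the only one called higher, at 191, 204 and 219 in striatum and 32.6, 35.0 and 29.9 in cortex (log2 2.66, SE 0.22, adjusted p = 0.00205). Adcy2 and Adcy8 were called lower: Adcy2 lay at 24.0, 26.1 and 24.8 in striatum and 69.4, 51.5 and 88.9 in cortex (log2 -1.48, SE 0.25, adjusted p = 0.0207), and the calcium-stimulated Adcy8 at 2.69, 4.28 and 2.62 in striatum and 10.6, 9.79 and 10.6 in cortex (log2 -1.69, SE 0.27, adjusted p = 0.016). Adcy1, also stimulated by calcium, lay at 64.5, 20.0 and 21.2 in striatum and 72.0, 86.9 and 174 in cortex and was not called (log2 -1.66, adjusted p = 0.146), ESW176 being the highest of the striatal group. Adcy3 and Adcy9 were not called either (log2 0.57 and -0.39).

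Phosphodiesterases, which break cAMP down, divided in the same way. Pde10a, which degrades both cAMP and cGMP, lay at 254, 205 and 206 in striatum and 24.6, 27.0 and 8.66 in cortex (log2 3.47, SE 0.44, adjusted p = 0.00725). Pde1b, activated by calmodulin, lay at 374, 434 and 457 in striatum and 55.4, 61.1 and 50.1 in cortex (log2 2.92, SE 0.23, adjusted p = 0.00199), while its relative Pde1a went the other way at 35.9, 24.8 and 25.7 in striatum and 139.9, 160.0 and 198 in cortex (log2 -2.52, SE 0.26, adjusted p = 0.00391). In both genes the 6 values fell into separate ranges by tissue. Pde7b was called higher (log2 2.39, adjusted p = 0.0169). The cAMP-specific Pde4a, Pde4b and Pde4d, and Pde2a and Pde8b, were not called, with log2 differences from -0.51 for Pde4a to 0.53 for Pde8b.

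Of the kinase A subunits, 1 of 6 tested was called. Prkar1b, a regulatory subunit, lay at 51.0, 67.8 and 63.6 in striatum and 151, 132 and 186 in cortex (log2 -1.36, SE 0.23, adjusted p = 0.0217), so that the values of the 2 tissues were separate. The regulatory subunit Prkar2b, at 149, 90.9 and 112 in striatum and 73.6, 91.0 and 46.9 in cortex, was not called (adjusted p = 0.262), and the catalytic subunits Prkaca and Prkacb differed by -0.24 and 0.07 on the log2 scale. Downstream, Ptpn5, the striatal-enriched phosphatase STEP, lay at 202, 212 and 222 in striatum and 41.9, 54.4 and 62.1 in cortex (log2 2.01, SE 0.23, adjusted p = 0.00473). Rasgrp2, an exchange factor that activates Rap, lay at 58.7, 74.5 and 86.7 in striatum and 7.34, 5.86 and 3.5 in cortex (log2 3.73, SE 0.34, adjusted p = 0.00315), whereas its relative Rasgrp1 was not called (log2 -0.25). Of the chain, 15 were called higher and 6 lower without ESW176, 9 and 1 without ESW183 or without ECW176, and 12 and 2 without ESW180 or without ECW178. With the GC class in the fit, 20 were called higher and 6 lower.

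**Figure D3:**
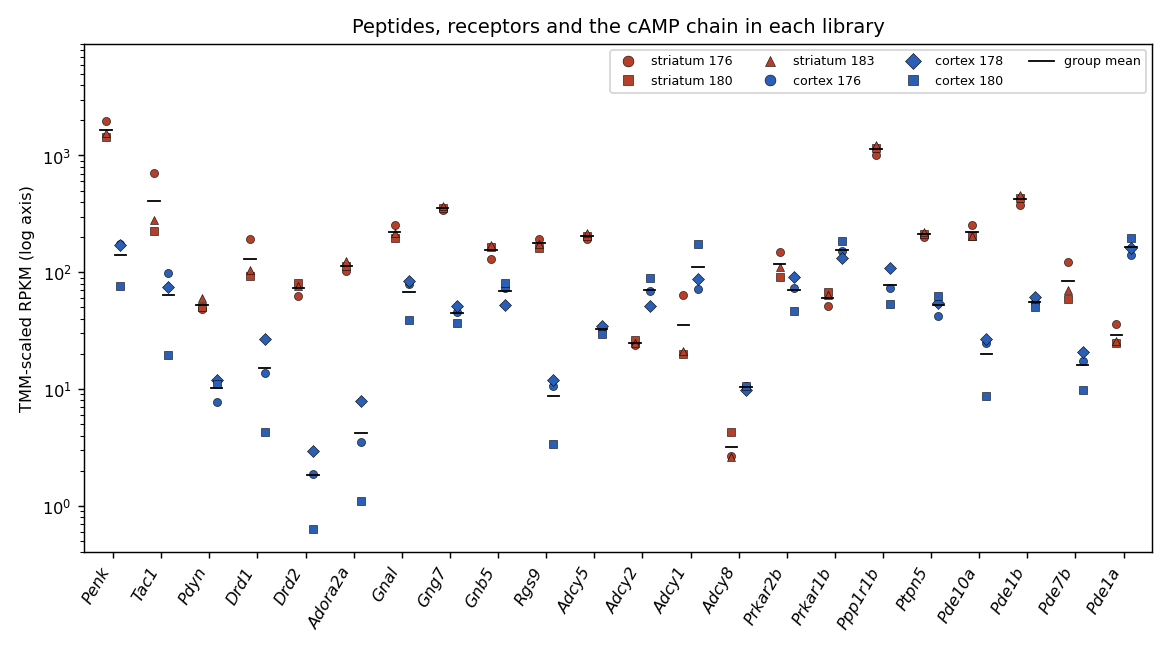
TMM-scaled RPKM (log axis) of 22 peptide, receptor and cAMP chain genes in each library, with striatum in red, cortex in blue, a marker shape for each title number and a bar for the group mean. Adcy5, Pde10a and Pde1b lie higher in every striatal library, and Adcy2, Adcy8, Prkar1b and Pde1a lie lower.

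Markers of the indirect pathway were called higher for 4 of 4 tested and markers of the direct pathway for 5 of 9, with median log2 differences of 4.81 and 2.63 (background 1.88% called higher). The direct pathway count was 1 without ESW180, ESW183 or ECW176, and 2 without ECW178, while the indirect count stayed at 3 or 4 without each library in turn. Penk, the enkephalin precursor, lay at 1982, 1450.0 and 1549 in striatum and 173, 172 and 77.0 in cortex (log2 3.56, SE 0.37, adjusted p = 0.00391) and was among the 10 genes of highest level in striatum. Gpr6, an orphan receptor of indirect pathway cells, lay at 10.5, 25.3 and 27.9 in striatum and 0.364, 0.709 and 1.04 in cortex (log2 4.83, SE 0.55, adjusted p = 0.00465). On the direct side, Pdyn, the dynorphin precursor, lay at 48.2, 50.1 and 59.9 in striatum and 7.74, 11.9 and 11.1 in cortex (log2 2.36, SE 0.27, adjusted p = 0.00473). Tac1, the precursor of substance P, lay at 704, 224 and 282 in striatum and 99.0, 74.3 and 19.7 in cortex, without overlap but with ESW176 far above the others, and missed the threshold (log2 2.65, SE 0.64, adjusted p = 0.0643). Isl1, a transcription factor of direct pathway neurons, lay at 16.9, 15.7 and 15.8 in striatum and 0.765, 1.3 and 0 in cortex (log2 4.68, SE 1.03, adjusted p = 0.0463). Chrm4, the M4 muscarinic receptor, differed less, at 33.6, 35.1 and 33.5 in striatum and 12, 12.9 and 20.6 in cortex (log2 1.16, SE 0.26, adjusted p = 0.0476). Sfxn1 and Eya1 overlapped between the tissues (log2 0.18 and -0.56), and Slc35d3 did not overlap but was not called (adjusted p = 0.0881). Within cortex, ECW180 held the lowest value of Drd1, Drd2, Adora2a, Penk, Tac1 and Isl1. It held the highest of Gpr6 (1.04) and Chrm4 (20.6), and its Pdyn value (11.1) lay between the other cortical ones.

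Transcription factors of the striatum were called higher for 9 of 18 tested and lower for 0, with a median of 1.95 (background 1.88%). The count was 3 without ESW180, ESW183 or ECW176, 5 without ECW178, and 13 with the GC class in the fit. Six3, a homeobox factor of indirect pathway development, lay at 9.47, 26.0 and 23.4 in striatum and 0.292, 1.07 and 0.0211 in cortex (log2 5.64, SE 0.97, adjusted p = 0.0217). Rarb and Rxrg, partner receptors for retinoic acid, lay at 77.5, 51.1 and 60.4 in striatum and 11.3, 9.94 and 3.94 in cortex and at 52.6, 37.7 and 42.6 in striatum and 4.38, 5.58 and 1.99 in cortex (log2 3.50, SE 0.40, adjusted p = 0.00473 for Rxrg). Of the Dlx factors of forebrain GABAergic neurons, Dlx6 was called (28.2, 35.9 and 33.6 in striatum and 6.55, 3.23 and 4.03 in cortex, log2 2.82, SE 0.33, adjusted p = 0.00511), and Dlx5 was not (adjusted p = 0.156). Foxp1, a forkhead factor, lay at 78.0, 81.4 and 70.8 in striatum and 20.7, 21.6 and 33.6 in cortex (log2 1.60, SE 0.25, adjusted p = 0.0161), and its relative Foxp2 at 97.3, 29.3 and 40.5 in striatum and 13.5, 14.9 and 5.58 in cortex, where the adjusted p was 0.0545. In the retinoid pathway list, Rarb and Rxrg were the only members called among 16 tested (background 1.88%), and the binding protein Crabp1 lay at 7.27, 6.9 and 9.08 in striatum and 2.06, 0.471 and 0.279 in cortex (adjusted p = 0.0665).

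Cholinergic interneurons, a sparse cell type of the striatum, were marked by 5 higher calls among 6 genes tested (background 1.88%), with a median of 3.61. The count was 6 without ESW176 and 2 without ESW183, ECW176 or ECW178. Chat, which makes acetylcholine, lay at 9.18, 8.35 and 5.84 in striatum and 0.447, 0.419 and 0.284 in cortex (log2 4.36, SE 0.39, adjusted p = 0.00315). Slc5a7, the choline transporter, lay at 32.5, 11.9 and 12.3 in striatum and 2.77, 1.81 and 0.582 in cortex (log2 3.48, SE 0.63, adjusted p = 0.027). Lhx8, the LIM homeobox factor of these cells, had 288 counts in the striatal and 3 in the cortical libraries, a ratio of 216 at equal depth with a 95% counting interval of 73.3 to 1056. It lay at 6.86, 9.11 and 6.01 in striatum and 0.0465, 0.113 and 0 in cortex and is also a marker of the pallidum and septum, which lie beside the striatum. Ache, acetylcholinesterase, was not called (17.3, 41.6 and 29.7 in striatum and 12.6, 11.7 and 15.5 in cortex).

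Neuropeptides went both ways: of 20 tested, Penk and Pdyn were called higher, and Cck, Vip and Adcyap1 lower (background 1.88 and 1.79%). Without ESW176, 5 were higher and 4 lower, and without each of the other libraries 2 or 3 were higher and 0 or 1 lower. The GC class in the fit gave 4 and 6. Cck, the cholecystokinin precursor, lay at 50.9, 16.1 and 12.4 in striatum and 213, 202 and 534 in cortex (log2 -3.58, SE 0.63, adjusted p = 0.0243). Vip, of a class of cortical interneuron, lay at 12.6, 2.93 and 1.11 in striatum and 66.4, 110.0 and 52.9 in cortex (log2 -3.78, SE 0.76, adjusted p = 0.0355), and Adcyap1, the PACAP precursor, at 3.72, 6.93 and 1.49 in striatum and 37.7, 17.4 and 22.5 in cortex (log2 -2.68, SE 0.54, adjusted p = 0.0351). In each of these the 2 tissues were separate, and for Cck and Vip ESW176 held the highest striatal value. Sst and Npy, expressed in interneurons of both tissues, were not called (101, 209 and 169.8 in striatum and 118, 164 and 342 in cortex for Sst, and log2 -0.84 for Npy).

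The promoters of a few of these genes are shown to set the sequence before a gene beside its direction: Chat and Rgs9 were higher in striatum, and Cck and Vip lower. Each is the 250 bases before the RefSeq gene start on the strand of the gene, in build GRCm38.p6, at chr14:32465910-32466159, chr11:109298182-109298431, chr9:121495695-121495944 and chr10:5638968-5639217. Capitals mark matches to 2 motifs on either strand, TGACG (the core of the cAMP response element) and TATAAA (the TATA box).
Chat: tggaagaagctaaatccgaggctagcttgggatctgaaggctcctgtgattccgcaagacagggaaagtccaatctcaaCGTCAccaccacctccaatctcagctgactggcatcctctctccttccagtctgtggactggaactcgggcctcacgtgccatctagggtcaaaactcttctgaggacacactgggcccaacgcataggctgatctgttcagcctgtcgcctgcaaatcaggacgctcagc
Rgs9: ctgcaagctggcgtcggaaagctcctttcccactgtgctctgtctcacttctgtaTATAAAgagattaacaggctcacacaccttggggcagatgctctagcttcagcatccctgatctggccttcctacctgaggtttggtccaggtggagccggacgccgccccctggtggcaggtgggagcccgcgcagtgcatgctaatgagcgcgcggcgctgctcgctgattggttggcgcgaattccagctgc
Cck: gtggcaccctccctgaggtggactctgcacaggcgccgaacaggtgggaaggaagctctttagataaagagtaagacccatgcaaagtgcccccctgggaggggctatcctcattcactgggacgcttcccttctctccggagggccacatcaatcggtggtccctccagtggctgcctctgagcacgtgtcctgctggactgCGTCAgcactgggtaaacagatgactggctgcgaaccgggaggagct
Vip: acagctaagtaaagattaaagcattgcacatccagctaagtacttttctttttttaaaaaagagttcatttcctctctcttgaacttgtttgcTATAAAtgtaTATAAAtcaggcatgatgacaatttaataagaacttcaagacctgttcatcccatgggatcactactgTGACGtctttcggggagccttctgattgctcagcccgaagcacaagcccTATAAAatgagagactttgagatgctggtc
The match to TGACG is on the opposite strand in Chat and Cck, where it is printed as CGTCA, and on the strand of the gene in Vip. Its first printed base was 171 bases before the start of Chat, 47 before that of Cck and 79 before that of Vip. TATAAA began 195 bases before the start of Rgs9 and 157, 147 and 30 before that of Vip. Neither motif holds the other's letters. Promoters of a single chromosome were left out of the shares that follow. TGACG was in the 250 bases of 31.1% of the other 9163 tested genes with a promoter sequence, in 20.5% of the 166 called higher and in 22.9% of the 157 called lower. TATAAA was in 7.79% of them, in 10.2% of those called higher and in 10.8% of those called lower. A match is a description of these letters, and no test was made.

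Receptors for other transmitters were called in small numbers. Among 11 opioid, cannabinoid, adenosine and muscarinic receptors tested, Adora2a, Oprk1 and Chrm4 were higher and Chrm3 lower (background 1.88 and 1.79%). The 3 higher calls became 0 without ECW176 and 1 without ESW180, ESW183 or ECW178, and the lower call was lost without each of those 4. Oprk1, the kappa opioid receptor, lay at 5.33, 6.81 and 10.1 in striatum and 1.58, 1.92 and 1.55 in cortex (log2 2.14, SE 0.40, adjusted p = 0.0285), and Chrm3, the M3 muscarinic receptor, at 4.8, 5.98 and 6.7 in striatum and 16.0, 16.6 and 39.3 in cortex (log2 -2.04, SE 0.39, adjusted p = 0.031). Cnr1, the CB1 cannabinoid receptor, overlapped at 213, 75.01 and 56.3 in striatum and 96.2, 94.8 and 52.9 in cortex. Of 15 serotonin and adrenergic receptors, 2 were higher and 2 lower. The lower count stayed at 2 without ESW176 and was 0 without each of the other libraries, and the higher count was 0 without ESW183 or ECW176 and 1 without ESW180 or ECW178. With the GC class in the fit, 2 were higher and 5 lower. Htr1b lay at 5.89, 20.7 and 17.1 in striatum and 0.41, 0.499 and 1.81 in cortex (log2 3.89, SE 0.70, adjusted p = 0.0263) and Adra2c at 12.6, 17.0 and 19.6 in striatum and 3.45, 3.32 and 5.0 in cortex (log2 2.06, SE 0.28, adjusted p = 0.00979), while Adra1d lay at 1.04, 0.554 and 0.111 in striatum and 5.66, 3.71 and 17.3 in cortex (log2 -3.95, SE 0.80, adjusted p = 0.0369) and Htr5a differed by -1.18 (adjusted p = 0.0316). Among 13 orphan receptors, Gpr6, Gpr83 and Gpr155 were called higher and 0 lower. Between 1 and 4 were higher without each library in turn, and with the GC class 5 were higher and 3 lower.

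Receptors for glutamate and GABA showed few calls. Of 16 ionotropic glutamate receptor subunits, 0 were called in edgeR, 5 had an unadjusted p under 0.05 and 2 were called in DESeq2, and the median was 0.07. Calls numbered 2 higher and 3 lower with the GC class, and 2 lower without ESW176. Grin1, the obligate NMDA receptor subunit, lay at 99.0, 138 and 136 in striatum and 118, 90.2 and 149.6 in cortex, and Gria1 at 136, 165 and 154 in striatum and 153, 101 and 90.5 in cortex. Of 18 GABA and glycine receptor genes, 2 were called lower (background 1.79%): Gabra3, an alpha subunit, at 5.09, 7.45 and 4.91 in striatum and 21.3, 23.6 and 18.6 in cortex (log2 -1.86, SE 0.25, adjusted p = 0.00929), and Gabbr2, of the GABA-B receptor, at 14.3, 26.0 and 20.0 in striatum and 47.7, 52.1 and 103 in cortex (log2 -1.75, SE 0.36, adjusted p = 0.0398). Without ESW176, 7 of this list were called lower, without each of the other libraries 0 or 1 were, and with the GC class 6 were. The vesicular GABA transporter Slc32a1 was called higher at 44.5, 120.3 and 119 in striatum and 24.0, 14.05 and 28.9 in cortex (log2 2.08, SE 0.43, adjusted p = 0.0387), and its striatal value was lowest in ESW176. It was the only call among 16 makers and transporters of glutamate and GABA (background 1.88% higher). Higher calls in that list numbered 2 without ESW176 and 0 without each of the other libraries. The GC class gave 4 higher and 4 lower. Gad1 and Gad2, which make GABA, lay at 351, 323 and 278 in striatum and 341, 219 and 137 in cortex and at 258, 232 and 231 in striatum and 136, 101 and 53.9 in cortex and were not called (adjusted p = 0.571 and 0.0789).

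Of 49 potassium channel genes tested, 8 were called lower and 4 higher (background 1.79 and 1.88%), with a median of -0.50. The 8 lower were Kcnh7, Kcnj3, Kcnc2, Kcnc4, Kcnj9, Kcnt2, Kcnb2 and Kcnma1. Kcnh7, of the ERG family, lay at 2.46, 3.06 and 1.52 in striatum and 20.8, 16.4 and 18.7 in cortex (log2 -2.99, SE 0.31, adjusted p = 0.00391). Kcnj3 and Kcnj9, which form G protein-gated channels, lay at 17.0, 8.43 and 7.56 in striatum and 66.3, 44.0 and 44.8 in cortex (log2 -2.23, SE 0.36, adjusted p = 0.0179) and at 18.6, 19.3 and 14.95 in striatum and 46.3, 53.5 and 69.8 in cortex (log2 -1.68, SE 0.24, adjusted p = 0.0113). The 4 higher were Kcnh4, Kcnab1, Kcnip2 and Kcnt1. Kcnip2, a partner of the A-type channel, lay at 169, 140.3 and 160.4 in striatum and 55.1, 66.2 and 41.3 in cortex (log2 1.53, SE 0.25, adjusted p = 0.0179). Lower calls numbered 12 without ESW176, 6 without ECW180 and 1 to 3 without each of the other libraries, and higher calls 4, 3 and 0 to 2. With the GC class in the fit, 18 were lower and 8 higher.

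Among 31 genes of sodium, calcium and related cation channels, 4 were called higher and 1 lower (background 1.88 and 1.79%). Leaving out each library in turn gave 2 to 5 higher and 0 to 4 lower, the largest counts without ESW176, and the GC class gave 6 and 5. Beside Scn4b, the higher ones were accessory subunits of calcium channels or their relatives: Cacng4 lay at 36.9, 36.5 and 39.8 in striatum and 9.33, 9.25 and 7.38 in cortex (log2 2.13, SE 0.24, adjusted p = 0.00466), Cacna2d3 at 144, 89.3 and 99.4 in striatum and 39.4, 42.6 and 43.2 in cortex (log2 1.41, SE 0.24, adjusted p = 0.0219) and Cacna2d2 at 14.9, 54.2 and 49.4 in striatum and 8.64, 6.37 and 7.65 in cortex (log2 2.39, SE 0.45, adjusted p = 0.031). No pore-forming calcium or sodium channel gene on the list was called.

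Calcium release and calcium sensor genes divided by isoform as well, with 3 called higher and 3 lower of 35 (background 1.88 and 1.79%). These counts were 8 and 8 with the GC class in the fit, 4 and 4 without ESW176, 1 and 0 without ESW183, 1 and 1 without ECW176, 3 and 1 without ESW180, and 2 and 1 without ECW178. Ryr1 and Ryr3, calcium release channels, lay at 4.22, 5.49 and 3.98 in striatum and 1.03, 1.04 and 0.722 in cortex (log2 2.30, SE 0.27, adjusted p = 0.00473) and at 19.3, 18.4 and 17.5 in striatum and 4.35, 5.17 and 1.91 in cortex (log2 2.27, SE 0.36, adjusted p = 0.0161), while Ryr2 was not called, at 17.1, 12.5 and 12 in striatum and 25.9, 23.5 and 22.2 in cortex (log2 -0.78, adjusted p = 0.105). Of the neuronal calcium sensors, Hpca, hippocalcin, was higher at 1014, 1017 and 1140.1 in striatum and 260.1, 271 and 414 in cortex (log2 1.75, SE 0.26, adjusted p = 0.0139), whereas Ncald, neurocalcin delta, was lower at 93.3, 90.7 and 78.3 in striatum and 279, 328 and 430.0 in cortex (log2 -1.98, SE 0.25, adjusted p = 0.00725), and Vsnl1 was lower at 353, 261 and 225 in striatum and 671, 871 and 811 in cortex (log2 -1.49, SE 0.26, adjusted p = 0.0223). Camk1, a calmodulin-dependent kinase, was the remaining lower call, at 23.3, 31.3 and 28.2 in striatum and 52.5, 53.8 and 58.9 in cortex (adjusted p = 0.045). Pcp4, a small calmodulin regulator, had the highest mean level in striatum of any gene, at 3894, 1804 and 2069 in striatum and 1128, 864 and 598 in cortex, and missed the threshold with separate groups (log2 1.58, SE 0.37, adjusted p = 0.0579).

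**Figure D4:**
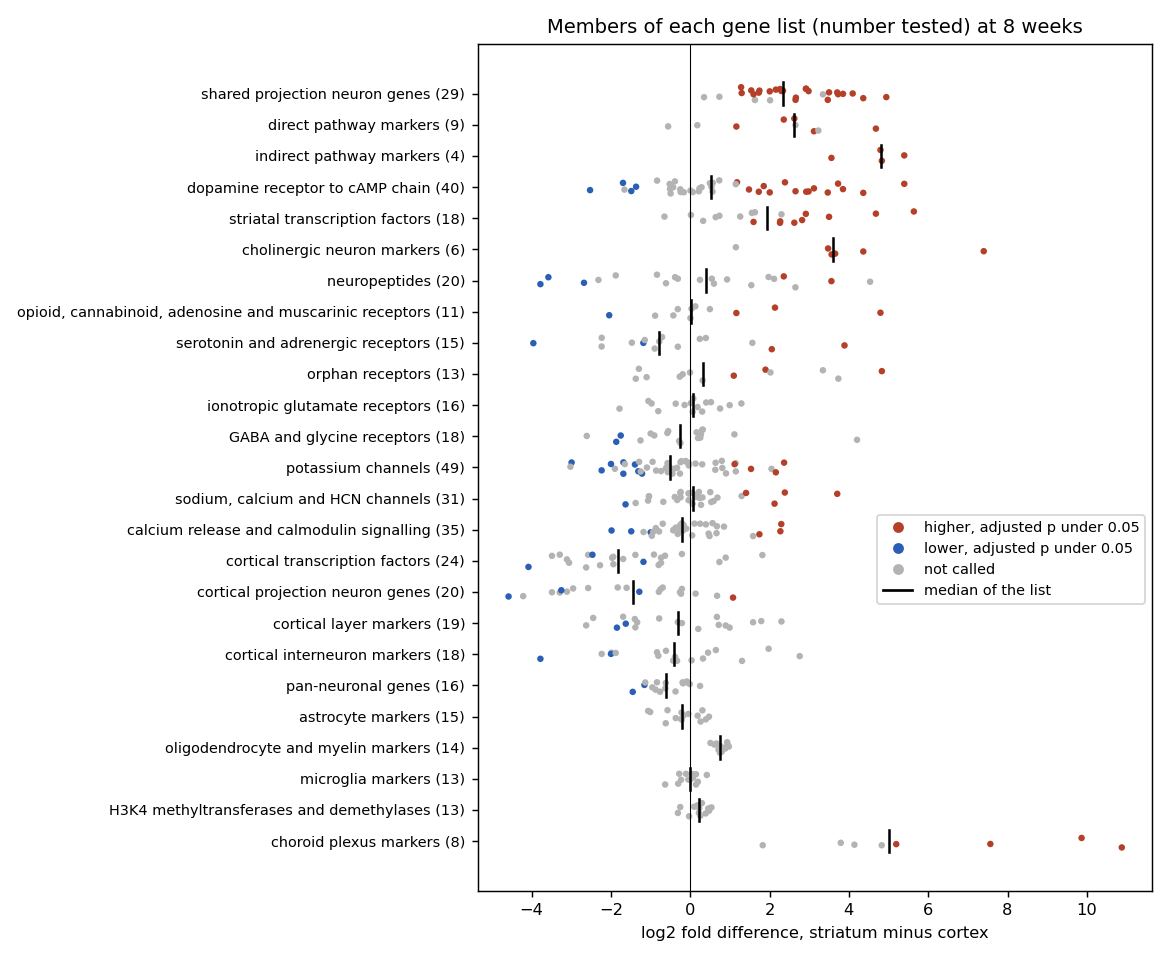
Log2 fold difference, striatum minus cortex, of each tested member of 25 gene lists, with members called higher in red, called lower in blue and not called in grey, and the median of the list as a black bar. The shared projection neuron genes lie at a median of 2.34 with 0 members below 0, and the cortical transcription factors at a median of -1.81 with 3 of 24 called.

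Most genes of cortical excitatory neurons had negative differences, and few passed the test. Of 20 projection neuron genes, 3 were called lower and 1 higher, with a median of -1.44, and of 24 cortical transcription factors 3 were called lower and 0 higher, with a median of -1.81 (background 1.79 and 1.88%). Slc30a3, the vesicular zinc transporter, lay at 3.38, 0.451 and 0.377 in striatum and 27.0, 42.9 and 32.2 in cortex (log2 -4.58, SE 0.74, adjusted p = 0.0176). Rtn4r, the Nogo receptor, lay at 2.74, 1.57 and 2.22 in striatum and 10.8, 14.8 and 36.5 in cortex (log2 -3.25, SE 0.51, adjusted p = 0.0159), and Nell2 at 117, 88.3 and 104 in striatum and 249, 236 and 268 in cortex (log2 -1.28, SE 0.22, adjusted p = 0.0207). Camkv, a kinase-like protein placed on that list, was higher at 215, 294 and 325 in striatum and 120.1, 125 and 149.6 in cortex (log2 1.08, SE 0.24, adjusted p = 0.0497). Slc17a7 was not called (log2 -4.21, SE 1.08, adjusted p = 0.0789), with the raised value of ESW176 given above and no overlap between the tissues. Without that library, 13 of the 20 projection neuron genes and 11 of the 24 transcription factors were called lower, and without each of the other libraries 0 to 3 and 0 or 1 were. With the GC class in the fit these counts were 13 and 15.

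Emx1, the homeobox factor of the dorsal telencephalon, lay at 0.906, 0.725 and 0.121 in striatum and 4.33, 8.44 and 17.3 in cortex (log2 -4.08, SE 0.75, adjusted p = 0.0275). Mef2c, an activity-regulated factor, lay at 87.9, 29.2 and 32.5 in striatum and 277, 309 and 240.0 in cortex (log2 -2.46, SE 0.43, adjusted p = 0.0245), and Sox5, of deep-layer neurons, at 5.48, 5.51 and 4.9 in striatum and 10.95, 11.9 and 13.1 in cortex (log2 -1.18, SE 0.23, adjusted p = 0.0328). Tbr1, at 17.8, 2.7 and 1.55 in striatum and 56.8, 74.1 and 59.7 in cortex, and Neurod2, at 20.7, 0.0839 and 0.295 in striatum and 41.3, 46.2 and 38.2 in cortex, had separate groups but a raised value in ESW176, and were not called (adjusted p = 0.0817 and 0.392). Tle4 and Pou3f1 lay above 0 without overlap and were not called (log2 0.90 and 1.82). Neurod1 was highest of all in ESW176, at 52.4, 0.531 and 0.533 in striatum and 7.62, 18.2 and 6.48 in cortex. Of 19 layer markers, 2 were called lower and 0 higher (background 1.79 and 1.88%), with a median of -0.31 and 8 positive differences. Without overlap, 6 lay higher and 7 lower (11.3 and 11.1% of all genes). The lower count was 4 without ESW176 and 0 or 1 without each of the other libraries. It was 9 with the GC class, where 6 were higher. The 2 lower calls were Rprm of layer 6 at 16.3, 13.6 and 19.2 in striatum and 46.4, 63.3 and 41.8 in cortex (log2 -1.62, SE 0.26, adjusted p = 0.016) and Rasgrf2 of upper layers at 4.42, 9.82 and 7.54 in striatum and 21.5, 23.0 and 33.7 in cortex (log2 -1.85, SE 0.34, adjusted p = 0.0276).

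Interneuron markers were called lower for 2 of 18, Vip and Kcnc2, and higher for 0 (background 1.79 and 1.88%). The count was 2 without ESW176, 1 without ECW180 and 0 without each of the other 4 libraries, and with the GC class 5 were lower and 2 higher. Calb2 was high in a single cortical library, at 55.2, 67.5 and 34.6 in striatum and 127, 13.5 and 12.8 in cortex. Genes common to all neurons were called lower for 2 of 16 (background 1.79%), with a median of -0.62: Syt1, the synaptic calcium sensor, at 500.4, 365 and 377 in striatum and 1020.5, 950.5 and 792 in cortex (log2 -1.15, SE 0.25, adjusted p = 0.0433), and Elavl4, an RNA-binding protein, at 22.2, 35.0 and 26.4 in striatum and 63.4, 60.4 and 104 in cortex (log2 -1.45, SE 0.31, adjusted p = 0.0415). Of these 16 genes, 5 were lower without ESW176, 7 with the GC class, and 0 without each of the other libraries. Snap25 had the highest mean level in cortex, at 2813, 1027 and 1153 in striatum and 2898, 3594 and 2638 in cortex, and was not called. Bdnf, which cortical neurons supply to the striatum, lay at 8.58, 2.84 and 0.855 in striatum and 20.9, 28.3 and 13.8 in cortex without overlap and was not called (log2 -2.35, SE 0.69, adjusted p = 0.115). Gdnf, a trophic factor for dopamine neurons, was higher at 3.33, 2.16 and 2.73 in striatum and 0.316, 0.22 and 0.049 in cortex (log2 3.89, SE 0.66, adjusted p = 0.021).

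Glial markers gave no call in edgeR on the TMM scale with all 6 libraries and no GC or replicate term. Astrocyte, microglia and oligodendrocyte precursor markers gave 0 calls among 15, 13 and 8 tested in edgeR, with medians of -0.21, 0.00 and 0.14. At an unadjusted p under 0.05 the counts were 0, 0 and 1, and DESeq2 called 0. The GC class in the fit gave 2 lower calls among the astrocyte and 1 among the precursor markers, and 1 precursor marker was higher without ESW176. With the library total of the authors, 3 astrocyte markers and 1 precursor marker were lower, when 1408 of all 11479 genes were. With the title number as a replicate block, 1 astrocyte marker was lower (1.15% of all genes). All 14 myelin markers had positive differences, from 0.51 to 0.98, and 0 were called in edgeR or DESeq2, with 6 at an unadjusted p under 0.05. Of them, 3 were called higher with the GC class in the fit, 4 without ECW180 and 0 without each of the other libraries. Cldn11, a tight junction protein of myelin, lay at 386, 193 and 153 in striatum and 123, 120.2 and 129 in cortex (log2 0.98, SE 0.34, adjusted p = 0.182), and Mog, a protein of the outer myelin surface, at 109.8, 92.2 and 78.6 in striatum and 45.8, 34.9 and 87.4 in cortex. The tissues did not overlap in 5 of the 14, Cldn11 among them (11.3% of all genes were higher without overlap), and overlapped for Mog. Of 14 vessel markers, Rgs5 was called lower (log2 -0.94), and of 10 markers of the meninges Slc22a6 (log2 -2.80), against 1.79% of all genes. Without ESW176, 2 of each list were lower, without each of the other libraries 0 were (1 of the meninges without ECW176), and with the GC class 2 and 3 were.

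Markers of tissues next to the striatum were higher in some striatal libraries. Of 8 choroid plexus genes, 4 were called higher and 0 lower (background 1.88 and 1.79%), and their summed level (9 genes) was 302, 1249 and 5754 in striatum against 120.2, 95.05 and 115.9 in cortex. Otx2 had 211 counts in striatum and 0 in cortex, at least 158.6-fold higher when cortex is set at 3 counts over the group, the floor used here. Folr1 had 197 and 2, a ratio of 222 with a 95% counting interval of 60.7 to 1846. Both were lowest in ESW176 and highest in ESW183, as Ttr was, at 0.895, 5.25 and 10.6 for Otx2 and 0.7, 3.48 and 20.4 for Folr1. Ccdc153, of ependymal cilia, was the only ependyma marker called of 4, at 2.75, 18.2 and 18.6 in striatum and 0.184, 0.786 and 0.52 in cortex (log2 4.71, SE 0.83, adjusted p = 0.0249). The summed level of 13 hypothalamus markers was 1.95, 185 and 62.2 in striatum against 20.5, 2.66 and 7.09 in cortex, and 0 of 5 tested were called in edgeR, with 3 at an unadjusted p under 0.05 and 2 called in DESeq2. Without ESW176 3 were called higher, and 1 with the GC class. Oxt had 424 counts in striatum, all in ESW180 and ESW183, and 0 in cortex, at least 318.6-fold over the group. The part of these tissues in other calls was not tested, and all 8 choroid plexus genes and 4 of 4 ependyma genes were called higher without ESW176. Without each of the other libraries, 1 or 2 choroid plexus genes and 0 ependyma genes were. The level filter passed 8 of 9 choroid plexus, 4 of 8 ependyma and 5 of 13 hypothalamus genes. A gene near 0 in cortex passes it only through the striatal libraries where it is high, so these counts describe genes selected in that way.

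Zic1, Zic2 and Zic4, zinc finger factors of the septum and thalamus, were called higher. Zic1 lay at 51.7, 51.4 and 38.1 in striatum and 12.8, 3.12 and 3.05 in cortex (log2 2.90, SE 0.57, adjusted p = 0.0328) and Zic2 at 29.1, 25.9 and 19.8 in striatum and 7.23, 5.73 and 4.32 in cortex (log2 2.12, SE 0.28, adjusted p = 0.00827), without overlap. Prkcd, a protein kinase C prominent in thalamus, lay at 6.26, 43.5 and 29.6 in striatum and 2.99, 2.92 and 2.79 in cortex (log2 3.19, SE 0.61, adjusted p = 0.0325), lowest in ESW176. Slc17a6, the VGLUT2 transporter of thalamic and hypothalamic neurons, was not called and its cortical values reached above the striatal ones, at 5.27, 15.8 and 8.67 in striatum and 18.1, 29.4 and 15.2 in cortex. In all, 3 of 10 thalamus markers (Zic1, Zic4 and Prkcd) and 3 of 7 markers of pallidum and septum (Zic1, Zic2 and Lhx8) were higher, against 1.88% of all genes. The thalamus count was 3 without ESW176, 0 without ECW178, 2 without ECW176 and 1 without ESW180, ESW183 or ECW180, and the count of pallidum and septum ranged from 2 to 4. At 12 weeks Zic1, Zic2 and Prkcd differed by 0.39, -0.57 and -0.68 and were not called. Of 8 hippocampus markers Zbtb20 was higher (log2 1.61), and of 7 claustrum markers Oprk1 was higher and Ntng2 lower (log2 -2.05). The hippocampus count was 3 without ESW176, and both claustrum calls were lost without each of the other libraries. Dopamine neuron, neuroblast and blood markers gave 0 calls among 5, 10 and 3 in edgeR, with 2, 1 and 0 genes at an unadjusted p under 0.05 and 1, 0 and 0 calls in DESeq2. Without ESW176, 1 dopamine neuron marker was higher and 2 were lower.

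H3K4 enzymes and huntingtin partners, lists tied to the study's subject, gave 0 calls in edgeR on the TMM scale with all 6 libraries and no GC term. Of 13 H3K4 methyltransferases and demethylases, which write and remove the histone mark of active promoters, 0 were called, with differences from -0.31 to 0.54 and a median of 0.23, and 0 reached an unadjusted p under 0.05 or were called in DESeq2. Kmt2a lay at 19.5, 19.9 and 15.6 in striatum and 16.6, 14.8 and 10.6 in cortex and Kdm5c at 9.07, 17.6 and 18.5 in striatum and 13.1, 11.1 and 14.6 in cortex, with overlapping groups for both. Of 9 tested genes of huntingtin and its partners, 0 were called in edgeR, 2 had an unadjusted p under 0.05 and 1 was called in DESeq2. Without ESW176 1 was called higher, and 1 was lower with the GC class or with the library total of the authors. Htt, huntingtin itself, lay at 5.88, 13.9 and 11.7 in striatum and 12.5, 9.66 and 16.7 in cortex (log2 -0.31, SE 0.35, adjusted p = 0.733). Hap1, a huntingtin partner, was uneven within striatum, at 28.9, 151 and 121 in striatum and 47.9, 45.8 and 24.8 in cortex. Of 18 immediate early genes, Nptx2 was called lower (log2 -1.23, background 1.79%), with 2 lower without ESW176 or with the GC class and 0 without each of the other libraries, and Fos (24.4, 33.6 and 25.2 in striatum and 23.5, 22.5 and 44.2 in cortex) and Arc (40.7, 92.4 and 67.5 in striatum and 42.9, 44.0 and 237 in cortex) overlapped. Among 15 Eph receptors and ephrins 0 were called in edgeR, 7 had an unadjusted p under 0.05 and 6 were called in DESeq2, 3 in each direction (17.2% of all genes had such a p, and DESeq2 called 4.57% higher and 4.81% lower). Of the 15, 3 were higher and 4 lower with the GC class in the fit, 2 and 2 without ECW180, and 1 and 0 without ESW176. Of 12 reference genes 0 were called by either tool, and they lay between -0.57 and 0.46.

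The genes of highest level overlapped between the tissues in part. Among the 10 highest mean levels were, in striatum, those of Pcp4, Ttr, Tmsb4x, Ppp3ca, Snap25, Penk, Cpe, Arpp19 and Cst3, and in cortex those of Snap25, Cpe, Tmsb4x, Sparcl1, Chn1, Fth1, Hsp90ab1, Camk2n1 and Atp1b1. Of these, Penk and Ttr were called and the others named were not. Arpp19 ranks here on a deposited gene length of 87 bases, so its level is not comparable with those of the other genes. Ppp3ca, a calcineurin subunit, lay at 3308, 1176 and 1336 in striatum and 987, 1509 and 728 in cortex and was not called (adjusted p = 0.395).

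Beyond the lists, genes were named by a rule: the 15 widest called differences in each direction without overlap and with a mean level of at least 5 in the higher tissue, and the 10 genes of lowest p in each direction. Among the higher ones were Scube3, a secreted glycoprotein, at 6.06, 6.81 and 8.78 in striatum and 0.175, 0.128 and 0.152 in cortex (log2 5.52, SE 0.40, adjusted p = 0.00199), and Ptprv, a receptor phosphatase, at 2.78, 4.11 and 5.63 in striatum and 0.0976, 0.0793 and 0.0777 in cortex (log2 5.60, SE 0.44, adjusted p = 0.00199). Serpina9 lay at 32.3, 30.2 and 43.8 in striatum and 1.62, 1.42 and 0.33 in cortex (log2 5.05, SE 0.56, adjusted p = 0.00463), and Cd4, best known from T cells, at 38.2, 33.8 and 40.4 in striatum and 1.24, 2.71 and 0.244 in cortex (log2 4.81, SE 0.72, adjusted p = 0.0144). All 4 were separate between the tissues in every library. Clic6, a choroid plexus gene, lay at 9.98, 19.9 and 34.6 in striatum and 1.05, 0.584 and 0.199 in cortex. Stk32a, a kinase, and Ptpn7, a phosphatase, were also higher (log2 3.49 and 4.79). Eps8l3 and Ecrg4 were higher with uneven striatal values, 0.152, 12.5 and 13.1 and 2.76, 15.7 and 44.4.

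Among the lower genes, Scube1, a relative of Scube3, lay at 1.42, 0.677 and 0.588 in striatum and 12.3, 12.3 and 9.7 in cortex (log2 -3.67, SE 0.37, adjusted p = 0.00391). Wnt9a, a Wnt ligand, lay at 0.76, 0.567 and 0.814 in striatum and 6.15, 8.32 and 8.99 in cortex (log2 -3.45, SE 0.32, adjusted p = 0.00345) and had the lowest p of the lower genes. Rtn4rl2, a Nogo receptor relative, had 1 count in striatum and 539 in cortex, a ratio of 239 at equal depth with a 95% counting interval of 42.7 to 9461. Nptxr, the neuronal pentraxin receptor, and Npcd, which overlaps it and may share its reads, lay at 41.7, 38.7 and 28.9 in striatum and 177, 247 and 180.4 in cortex and at 48.9, 45.8 and 35.2 in striatum and 201, 278 and 203 in cortex (log2 -2.47, SE 0.26, adjusted p = 0.00391 for Nptxr). Mpped1, Fam81a, Fmn1 and Ak5 were lower by -1.96, -2.13, -2.14 and -1.81 on the log2 scale, each with separate groups. The relaxin receptor Rxfp1 (log2 -4.84, SE 0.81, adjusted p = 0.0207), the matrix proteins Smoc2 and Ccn3 (log2 -3.76 and -4.30), the secreted Wnt inhibitor Frzb, the growth factor Bmp3, and Myoc and Dkkl1 (log2 -3.72, -4.03, -3.82 and -3.64) were the others of that direction that the rule named.

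At 12 weeks the same contrast was measured in 6 other libraries, where 2352 of 11715 genes (20.1%) were called, 1186 higher (10.1%) and 1166 lower (9.95%). Of the 406 genes called at 8 weeks and tested at both ages, 391 (96.3%) had the same sign at 12 weeks, against 60.3% of all 11312 genes tested at both. Called in the same direction at both ages were 319, which is 78.6% of those 406 and 13.9% of the 2290 called at 12 weeks. Ppp1r1b differed by 4.04 (SE 0.39) at 12 weeks and Scn4b by 3.96 (SE 0.20). Genes that missed the threshold at 8 weeks and were called at 12 weeks included Tac1 (3.53, adjusted p = 5.86e-05), Bcl11b (2.55) and Arpp19 (2.26). Slc17a7 (-2.60) and Tbr1 (-1.87) were called lower. Of the 14 myelin markers, 12 were called higher at 12 weeks, with Cldn11 at 1.77. Whether a call was made at 1 age and not the other does not show that the ages differ, which the next test asked.

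Of 29 shared projection neuron genes, 29 were called higher at 12 weeks, and of the direct pathway markers 8 of 9 (10.1% of all genes). Cortical transcription factors were called lower for 13 of 24 and projection neuron genes for 10 of 20 (9.95% of all genes).

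A change of the tissue difference with age was tested directly in the 12 wild-type libraries of both ages. The libraries of 8 and 12 weeks were separate sets, so age cannot be told apart from other differences between the sets. The summed level of choroid plexus genes, for example, was 302, 1249 and 5754 in striatum at 8 weeks and 130.6, 199.8 and 157.8 at 12 weeks. Of 11639 genes, 48 (0.412%) were called, and in all 48 the striatum-minus-cortex difference was more negative at 12 weeks. In 41 of them it was above 0 at 8 weeks and below 0 at 12 weeks. The median GC content of the 48 was 56.6%, against 49.7% for the genes tested at 8 weeks, and 45 of them lay above that median. Without ESW176 of 8 weeks the count was 387 more negative and 267 more positive. Lime1 and Dennd6b, with the lowest p, went from 1.41 to -1.37 and from 1.04 to -1.56. They and Cfp, Igflr1, Pan2 and Lrrc45 were the 6 genes called at both ages with opposite signs. Of the genes described above, Ttr, Ptprv, Ryr1, Rasgrf2 and Zic2 were called. Drd2 (5.40 at 8 and 3.73 at 12 weeks, adjusted p of the change = 0.3), Drd1 (3.12 and 4.35, 0.412) and Adcy5 (2.66 and 2.74, 0.864) were not.

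**Figure D5:**
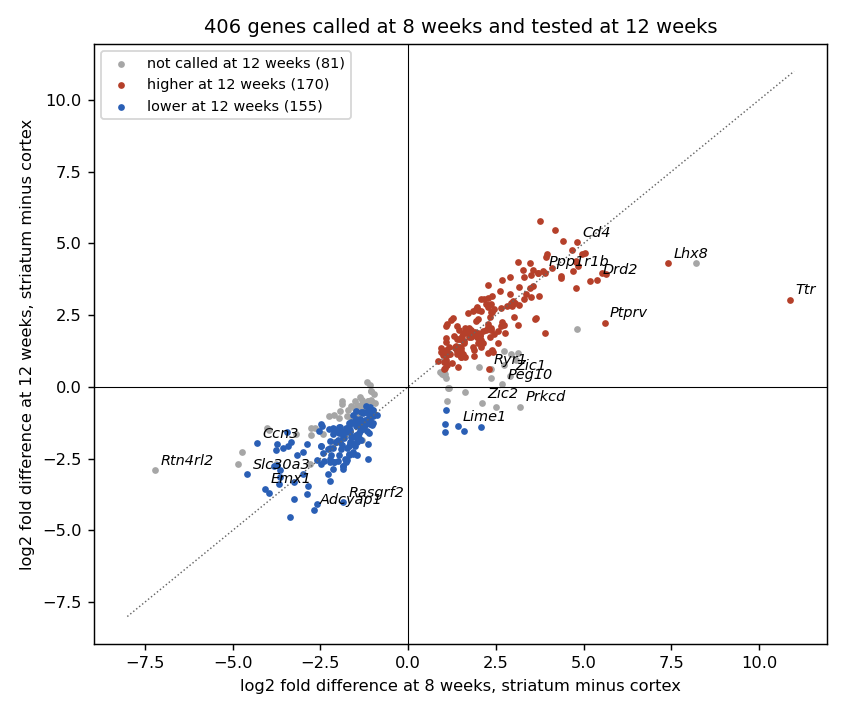
Log2 fold difference, striatum minus cortex, at 8 weeks (x axis) and 12 weeks (y axis) for the 406 genes called at 8 weeks and tested at both ages, with the colour giving the call at 12 weeks and the dotted line equal values. Most points lie at lower left or upper right, Ttr and Ptprv lie far below the line, and 6 genes called at both ages lie at lower right.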

How the data were processed

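Libraries were paired-end and kept the strand through dUTP marking, after oligo(dT) selection of poly(A) RNA, per the labels' protocols, which name 2 sequencers without saying which library ran on which. The deposited files hold raw read counts per gene and RPKM values, which the authors scaled by gene length and by a library total larger than the counts in genes, as tested on the files. Bowtie, DESeq and build mm9 are named in the submitters' processing notes, and the counting program and its strand setting were not given in the sources used here. Overlapping, antisense and near-identical genes are therefore uncertain.

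Deposited counts were tested with edgeR 4.0.16 (R 4.3.3): TMM scaling, quasi-likelihood test, Benjamini-Hochberg adjustment over all genes and a threshold of 0.05. Genes needed a mean deposited RPKM of at least 0.5 over the 6 libraries. A gene near 0 in 1 tissue passes this filter only through the other, so counts of list members tested include genes selected in that way. Each comparison used only the libraries it is about, and the change with age used the 12 wild-type libraries. SE is an approximate standard error derived from the test: the size of the log2 fold difference divided by the square root of its quasi-likelihood F statistic. Levels are counts per kilobase of gene, scaled by library size and TMM factor. Alternatives used DESeq2 1.42.0, limma 3.58.1 on log2(RPKM + 0.5), other scalings and filters, GC corrections, a replicate block and the loss of each library. The code was checked on simulated counts.

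Symbols came from RefSeq (GRCm38.p6). GC content came from the longest GENCODE transcript and was had for 11446 of the 11479 genes. The 45 gene lists held 776 entries, of which 735 were matched and 667 tested. The members and lists were chosen with earlier results of these data known, as were the rules. Text names the 15 widest called differences in each direction (no overlap, mean level of at least 5 in the higher tissue), the 10 lowest p in each direction, the 10 highest levels in each tissue, list members, and the 5 widest changes with age among called genes. Replicates of a group differed by chi-square values of 8.36 to 149.9 per degree of freedom, so none were merged. Depth ran from 7.09 to 29.3 M counts per library. Counting intervals and floors cover counting error only, since PCR copies carry no molecular identifiers. Some genes of the lists are counted but not reported here by name.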

Additional observations from a re-analysis of the deposited data

Results flagged for a closer look

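For 5 genes described above, the striatum-minus-cortex difference was smaller or more negative at 12 than at 8 weeks by edgeR's test of tissue by age across 12 wild-type libraries, with n = 3 per group. The ages were separate sets of libraries, so age cannot be told apart from other differences between those sets. The change was -7.82 on the log2 scale for Ttr (adjusted p = 0.0392), -3.35 for Ptprv (0.0286), -1.65 for Ryr1 (0.0335), -2.15 for Rasgrf2 (0.0352) and -2.67 for Zic2 (0.00749). Ttr, transthyretin, lay at 11.2, 40.9 and 40.1 in striatum and 1.62, 4.56 and 5.11 in cortex at 12 weeks, so that its 8-week striatal values, which spanned 135 to 4895, were all above its 12-week ones. Zic2 lay at 2.04, 3.48 and 2.61 in striatum and 4.07, 3.48 and 4.52 in cortex at 12 weeks, where the tissues overlapped, and Rasgrf2, an exchange factor, at 2.78, 2.23 and 2.08 and 38.7, 43.2 and 33.9, lower in every striatal library at both ages. Ptprv and Ryr1 were called higher in striatum at both ages. Of the called genes with a mean level of at least 5, the widest changes otherwise were those of Otx2 (-7.13), Eps8l3 (-5.26), Folr1 (-4.60) and Rtn4rl2 (4.38), none of which passed the test.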

How the results depend on the processing

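All 422 genes called at 8 weeks were also called by DESeq2, which called 524 higher and 551 lower, and no 8-week call became a call of the opposite sign under any alternative. Calls rose to 464 and 468 with the GC and length trend of each library removed, to 901 and 1007 with the GC class as a covariate, and to 762 and 928 or 2009 and 2075 within the libraries of 1 GC class, where a tissue has 1 library and is assumed to vary like the other. They fell to 91 and 65 against a 1.5-fold difference. Lower calls numbered 1548, with 163 higher, by limma on log2(RPKM + 0.5), which changes the test, the scale and the scaling together, and 1408 with the library total of the authors, and the median of all genes lay at -0.60 and -0.67 in these. Without each library in turn, higher calls ranged from 54 to 484 and lower calls from 18 to 473. At 12 weeks these ranges were 360 to 1545 and 369 to 1806, with 20.1% of genes called when all were kept. For the change with age they were 0 to 267 larger and 11 to 387 smaller, with 88 smaller by total counts in genes, and 2 larger and 3 smaller by limma. The cause was not tested.

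Some title numbers occur in both tissues (ESW176 and ECW176, ESW180 and ECW180). With the title number as a replicate block, 132 genes were called lower and 233 of the 422 calls were kept, and with the GC and length trend also removed 153 were higher and 106 lower. ESW183 and ECW178 have no same-numbered partner, so under the block the tissue difference rests on ESW176, ECW176, ESW180 and ECW180 only. Calls lost under the block therefore also reflect fewer libraries in the comparison. Deviations of the same-numbered libraries correlated at 0.29 and 0.42 across genes, but ECW178 correlated at 0.38 with ESW176 and ECW180 at 0.41 with ESW183. All of these pairs lie within the same GC class, so the correlations cannot tell whether same-numbered libraries came from the same animal. The labels do not state it. Under the block 1.53% of all genes were higher and 1.15% lower, and list counts changed by at least 2 as follows. Higher calls went from 3 to 1 among thalamus markers and among opioid, cannabinoid, adenosine and muscarinic receptors, from 5 to 3 among cholinergic markers, from 4 to 6 among choroid plexus genes and from 0 to 3 among layer markers. Lower calls went from 3 to 1 among cortical transcription factors and among calcium release and sensor genes, and from 0 to 2 among neurotrophins and their receptors.

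Differences of uncalled genes turned over in some settings. Neurod1 was 0.74 with all libraries, -4.32 without ESW176 and up to 1.34 without another library (ECW178), and -3.61 within ESW180, ESW183 and ECW180. Within those 3 libraries Sp8 was 3.45, Th 2.34 and Eomes 8.52, with ECW176, where all are high, left out. Striatal libraries had 7.09 to 9.04 M counts in genes, which limits the detection of rare transcripts. Small differences were mostly missed in simulated counts for 8 weeks, where 9.09% of log2 differences of 1 were called, and 80.6% of those of 2. Those counts varied independently between genes and held no shared GC trend or RNA of other tissues, so recovery in the real libraries may differ. The parts of depth and of the spread between libraries in the missed differences were not tested.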

Other observations

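Several genes of transmitter release, picked after their values were seen, were among the 206 called lower in striatum. Stx1a, a syntaxin of the fusion complex, lay at 27.6, 22.9 and 23.7 in striatum and 91.0, 131 and 195 in cortex (log2 -2.49, SE 0.31, adjusted p = 0.00685). Sv2b, a synaptic vesicle protein, lay at 117, 43.0 and 59.3 in striatum and 279.9, 311 and 211 in cortex (log2 -1.87, SE 0.39, adjusted p = 0.0395), and Olfm1, a secreted synaptic glycoprotein, at 302, 234 and 150.1 in striatum and 855, 1173 and 1152 in cortex (log2 -2.21, SE 0.30, adjusted p = 0.00965). All 3 were separate between the tissues, and since they were picked for their values they stand as descriptions only.

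Slc24a5, an exchanger known from pigment cells, was the only called gene whose tissues overlapped, at 0.0741, 39.9 and 42.5 in striatum and 0.0945, 0 and 0.123 in cortex (log2 8.20, SE 1.74, adjusted p = 0.0416), with ESW176 beside the cortical ones. Nexn, an actin-binding protein, lay at 314, 63.3 and 95.9 in striatum and 13.7, 18.2 and 3.3 in cortex and was highest in ESW176 (log2 3.76, SE 0.78, adjusted p = 0.04).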
